A study of Homo sapiens with 8 samples.

Results

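Voltage-gated sodium and calcium channel genes and potassium channel genes were followed in human neuroblastoma (NB) cells exposed to media conditioned by embryonic ganglia. Members were the protein-coding genes whose symbol was SCN with a number and A or B, or began with CACNA1, CACNA2D, CACNB, CACNG or KCN. The rule used symbols and no measured value, and it gave 135 genes (95 potassium, 26 calcium and 14 sodium channel genes) among 60676 gene identifiers. At least 1 count was found for 113 of them, 77 had a count in all 8 libraries, and 22 were at 0 in every library.

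Each of these channels is built from pore-forming alpha subunits and, in most families, accessory subunits that set how many channels reach the membrane and how they gate. Sodium channels carry the upstroke of the action potential, calcium channels couple depolarization to calcium entry, transmitter release and gene expression, and potassium channels set the resting potential and end each spike. Sympathetic neurons and the NB tumors that arise from their lineage are excitable or potentially excitable cells, and the M-current carried by KCNQ channels was first described in sympathetic neurons.

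The libraries came from IGR-N91, an established human NB line, cultured as hanging-drop aggregates, with 2 libraries in each of 4 groups. The control group was kept in control medium. The other aggregates received medium conditioned by sympathetic ganglia (SG) of chick embryos at day 8 (E8-cSGcm), by dorsal root ganglia (DRG) of chick embryos at day 8 (E8-cDRGcm), or by SG of E15.5 mouse embryos (E15.5-mSGcm). The comparisons ask how secreted cues of these ganglia alter the NB transcriptome. All groups hold the same cell line, and each medium was made from ganglia of several pooled embryos. The sequenced cells were cultured as in the aggregation assays of the study, which used fluorescent NB cells. Whether the sequenced cells carried a fluorescent reporter is not stated. Exposure is given as 20 h with the libraries and as 24 h in the design text of the series. The methods describe duplicates of each condition and measurements from distinct samples, but do not say whether the duplicates came from separate experiments or batches of medium, so p-values measure only the spread between these libraries.

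Total counts ranged from 7930765 to 15060744 per library, and both E15.5-mSGcm libraries, with 7930765 and 8937397, were the shallowest. Levels are given as CPM, with library sizes scaled by TMM. A level of 3 counts equals 0.197 to 0.384 CPM, which covers counting error only. All 9 noradrenergic NB markers had counts, at a summed 6080 to 6164 CPM in control medium, 4482 to 4760 in E8-cSGcm, 3594 to 3706 in E8-cDRGcm and 3641 to 3805 in E15.5-mSGcm. MYCN alone made up most of each sum, at mean levels of 4645, 3402, 2496 and 2638 CPM in the same order. For all markers here, higher and lower mean called at the thresholds given with the channel results. No noradrenergic marker was called higher, and 3 were called lower in E8-cSGcm (HAND1 and DBH among them), 6 in E8-cDRGcm (HAND1, DBH, PHOX2A, ISL1 and MYCN among them) and 4 in E15.5-mSGcm (HAND1, TH and MYCN among them). DBH rose in E15.5-mSGcm to 51.8 CPM from 37.5 in control medium (log2 0.47), below the fold change needed for a call. Of 7 fibroblast or mesenchyme markers, all with counts, COL1A2, DCN, LUM and PDGFRA were higher and COL1A1 lower in E15.5-mSGcm, and DCN was lower in E8-cDRGcm. Their sum was 417 to 428 CPM in control medium, 435 to 448 in E8-cSGcm, 448 to 464 in E8-cDRGcm and 477 to 487 in E15.5-mSGcm. Among 6 glial markers 3 had a count, SOX10 and FOXD3 were at 0, the sum reached 1.12 to 4.10 CPM, and ERBB3 was higher in E8-cDRGcm and E15.5-mSGcm. Leukocyte markers summed to at most 1.15 CPM with CD3E at 0, and CDH5 of endothelium was at 0. These shifts move with the media, and their part in the channel results was not tested. In such bulk libraries fewer cells of a type and less RNA per cell cannot be told apart.

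The 22 channel genes at 0 in all 8 libraries included SCN10A of nociceptors, CACNA1S of skeletal muscle, the R-type pore gene CACNA1E, the T-type pore gene CACNA1H, KCNA1, KCNA5, KCNA6, KCND2, KCNH7 and KCNJ9. Another 40 had counts but did not pass the filter on low counts, and the highest single count among them was 13, for SCN7A. The remaining 73 (53 potassium, 11 calcium and 9 sodium channel genes) were tested among 16680 genes. Compared per kilobase of annotated exon, as the mean of the 8 libraries, the highest level was that of the calcium accessory gene CACNA2D1 at 39.3 CPM per kb. The delayed rectifier gene KCNB2 (20.3), the G protein-gated inward rectifier gene KCNJ3 (16.4), CACNG4 (11.8) and the N-type calcium pore gene CACNA1B (10.3) led their families. KCNT2 (9.98), KCNG1 (8.69), SCN3A (8.60), KCNK3 (5.63), SCN3B (3.13), KCNIP2 (2.80) and CACNB3 (1.90) led the others on the same scale. With the length of the canonical transcript in place of all exons, KCNH2 led the voltage-gated potassium pores at 33.4 CPM per kb and KCNAB2 led the auxiliary genes at 4.63, and the other leaders were unchanged.

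A call required a fold change of 1.5 or more and, in edgeR's quasi-likelihood test, a Benjamini-Hochberg adjusted p under 0.05 over the 16680 genes. Values after ± beside log2 fold changes are standard errors derived from the test. Each is the size of the log2 fold change divided by the square root of its F statistic. In E8-cSGcm 17 of the 73 tested channel genes were called (23.3%), 11 higher and 6 lower, beside 8.59% of all tested genes, 4.73% higher and 3.86% lower. In E8-cDRGcm 31 were called (42.5%), 16 higher and 15 lower, beside 20.7% of all tested genes, 9.81% higher and 10.9% lower. In E15.5-mSGcm 31 were called (42.5%), 17 higher and 14 lower, beside 13.9% of all tested genes, 6.65% higher and 7.27% lower. The median size of the log2 fold change, without its sign, was 0.37, 0.58 and 0.62 over the tested channel genes and 0.22, 0.32 and 0.26 over all tested genes. Counting error adds to such sizes, and channel genes were not matched to other genes for level. Only 51 channel genes had at least 10 counts in every library. The median with its sign was 0.15, 0.10 and -0.03 over the channel genes, beside 0.01, 0.01 and -0.02 over all. The 3 comparisons share the control libraries. In all, 49 tested channel genes were called in at least 1 medium and 24 in none.

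**Figure D1:**
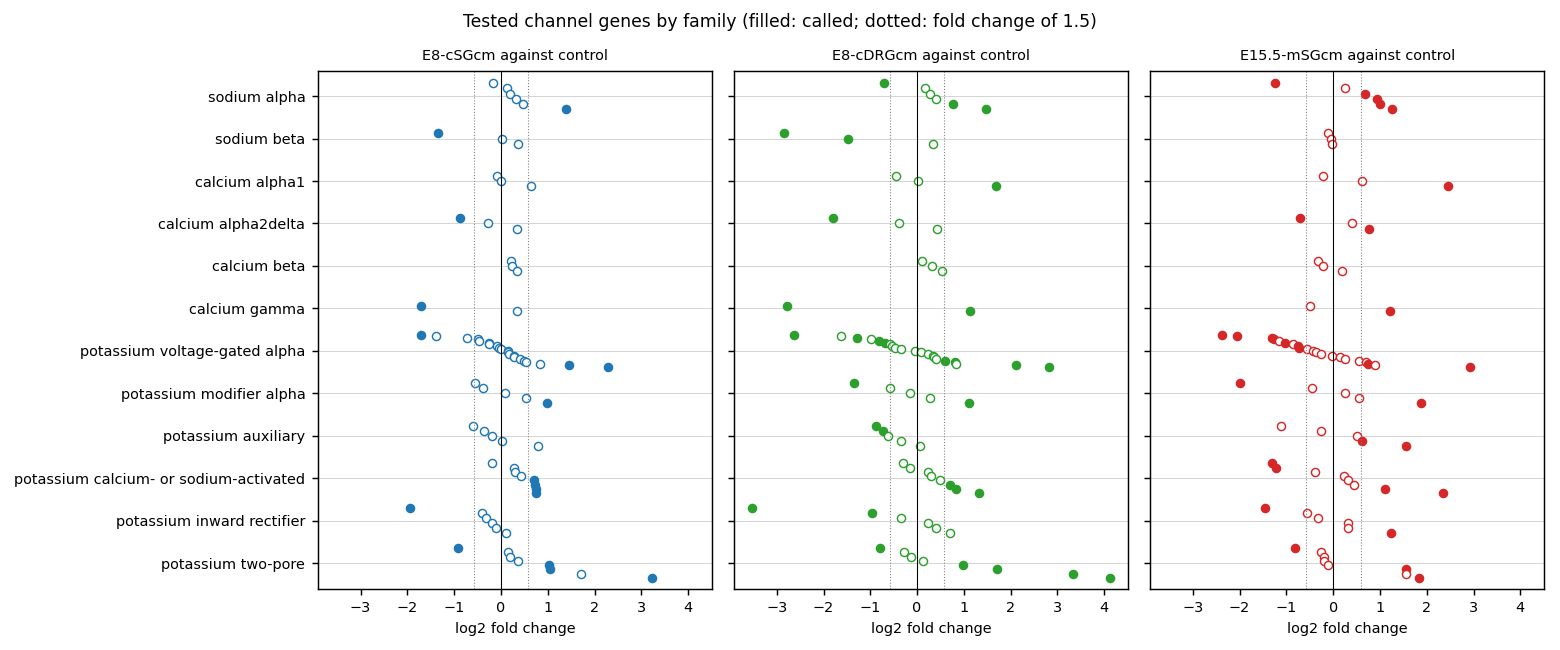
Each point is 1 of the 73 tested channel genes, placed by its log2 fold change against control medium on the horizontal axis and by its family on the vertical axis, with 1 panel per medium. Filled points were called, dotted lines mark a fold change of 1.5, and KCNJ6, the lowest inward rectifier point in both chick media at -1.95 and -3.53, lies at 1.24 in E15.5-mSGcm.

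Sodium channel pores were mostly higher where they were called. Of 10 alpha subunit genes 6 were tested. In E8-cSGcm 1 was called higher, in E8-cDRGcm 2 were higher and 1 lower, and in E15.5-mSGcm 4 were higher and 1 lower, with median log2 fold changes of 0.26, 0.34 and 0.81. SCN9A (chr2:167051695-167232511 on GRCh37, as are all gene positions here), the channel of nociceptors and sympathetic neurons, had 14.7 and 13.2 CPM in control medium, 17.1 and 17.5 in E8-cSGcm, 39.9 and 37.1 in E8-cDRGcm, and 30.9 and 35.1 in E15.5-mSGcm. Its libraries in E8-cDRGcm and E15.5-mSGcm were all above those of the other groups. The log2 fold change was 1.47 ± 0.099 (adjusted p = 3.21e-15) in E8-cDRGcm and 1.25 ± 0.11 (adjusted p = 6.95e-12) in E15.5-mSGcm, beside 0.31 ± 0.11 in E8-cSGcm, which did not reach the fold threshold.

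SCN3A (chr2:165944036-166060560), an embryonic brain sodium channel, is on the extended noradrenergic set of the study and not on its restricted set. It was at 76.5 and 74.5 CPM in control medium, 91.0 and 82.6 in E8-cSGcm, 93.2 and 90.0 in E8-cDRGcm, and 146 and 142 in E15.5-mSGcm. The E15.5-mSGcm libraries were the highest pair, at a log2 fold change of 0.93 ± 0.061 (adjusted p = 4.24e-15). SCN2A, its neighbour on chromosome 2 and the pore of early axons, was also higher there, at 0.69 ± 0.11 (adjusted p = 2.69e-06). That call was lost, below the fold threshold, without E15.5-mSGcm replicate 2, at 0.58 (adjusted p = 0.00138), and under correction for GC and gene length, at 0.45 (adjusted p = 0.000413). SCN8A, the main channel of the mature axon initial segment, rose in E8-cDRGcm (log2 0.77 ± 0.067, adjusted p = 9.56e-12), and had 0.48 and 0.24 in the SG media. SCN1A, a channel of inhibitory neurons, had 1.15 and 1.25 CPM in control medium, 3.29 and 3.08 in E8-cSGcm, 1.79 and 1.39 in E8-cDRGcm, and 1.54 and 3.20 in E15.5-mSGcm. It rose 2.63-fold in E8-cSGcm (adjusted p = 0.000791). In E15.5-mSGcm its 2 libraries differed widely, and the log2 fold change of 1.00 (adjusted p = 0.0317) became 0.35 (adjusted p = 0.675) without replicate 2, and 0.93 (adjusted p = 0.114) and 1.05 (adjusted p = 0.0829) without control replicate 1 or 2.

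Sodium beta subunits, which anchor and modulate the pores, were called in the chick media and in the direction of lower levels. Of 4 genes 3 were tested. SCN2B (chr11:118033521-118047354) had 29 and 25 counts in control medium, 10 and 10 in E8-cSGcm, 2 and 5 in E8-cDRGcm, and 16 and 15 in E15.5-mSGcm, and both E8-cDRGcm libraries were below every other. The ratio of control medium to E8-cDRGcm was 7.37 (95% counting interval 3.34 to 19.2), and the log2 fold change was -2.84 ± 0.51 (adjusted p = 1.28e-05), or -3.59 (adjusted p = 0.000138) without E8-cDRGcm replicate 2. In E8-cSGcm SCN2B was at -1.34 (adjusted p = 0.00992), a call lost without control replicate 1, at -1.12 (adjusted p = 0.109), or E8-cSGcm replicate 2, at -1.24 (adjusted p = 0.0822). SCN4B, next to SCN2B on chromosome 11, had 2.14 and 1.64 CPM in control medium, 1.44 and 2.31 in E8-cSGcm, 0.748 and 0.586 in E8-cDRGcm, and 1.92 and 1.71 in E15.5-mSGcm. It fell in E8-cDRGcm (log2 -1.48 ± 0.41, adjusted p = 0.00254), with log2 values of 0.02 and -0.05 in the other media. SCN3B, the beta gene with the highest level per kilobase, passed no call, at 0.37, 0.34 and -0.12.

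Among calcium channel pores the highest level per kilobase was that of CACNA1B, the N-type channel of sympathetic transmitter release and a gene of the extended noradrenergic set. CACNA1B (chr9:140772234-141019076) had 108 and 105 CPM in control medium, 102 and 97.9 in E8-cSGcm, 110.3 and 106 in E8-cDRGcm, and 85.8 and 97.4 in E15.5-mSGcm, and its log2 fold changes were -0.09 ± 0.06, 0.02 ± 0.059 and -0.21 ± 0.064. None reached the fold threshold, and the adjusted p was 0.28, 0.769 and 0.0082. Of 10 pore genes 3 were tested. The L-type gene CACNA1C had few reads, 4 and 2 counts in control medium, 3 and 6 in E8-cSGcm, 11 and 8 in E8-cDRGcm, and 9 and 11 in E15.5-mSGcm, and its ratio to control medium was 3.31 (95% counting interval 1.27 to 10.1) in E8-cDRGcm and 5.69 (95% counting interval 2.20 to 17.3) in E15.5-mSGcm. Its calls (log2 fold change 1.68, adjusted p = 0.0356, and 2.45, adjusted p = 0.00293) were both lost without control replicate 2, at 1.17 (adjusted p = 0.271) and 1.94 (adjusted p = 0.0598). In E8-cDRGcm the call was also lost without E8-cDRGcm replicate 1, at 1.42 (adjusted p = 0.205), E8-cDRGcm replicate 2, at 1.90 (adjusted p = 0.0585), or E15.5-mSGcm replicate 2, at 1.68 (adjusted p = 0.0504), and without control replicate 1 the values were 2.33 (adjusted p = 0.0481) and 3.09 (adjusted p = 0.00887). CACNA1D, the other L-type pore, was not called in any medium against control.

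The alpha2delta subunits, which carry pores to the membrane and bind gabapentin in the case of CACNA2D1 and CACNA2D2, split within the family. CACNA2D2 (chr3:50400044-50541675), on the extended noradrenergic set, had 48.9 and 45.9 CPM in control medium, 27.3 and 24.6 in E8-cSGcm, 14.6 and 12.5 in E8-cDRGcm, and 27.4 and 30.3 in E15.5-mSGcm. Both control libraries were above all 6 libraries of the conditioned media, and both E8-cDRGcm libraries were below all others. The level fell 1.83-fold in E8-cSGcm (adjusted p = 4.98e-10), 3.49-fold in E8-cDRGcm (adjusted p = 5.78e-18) and 1.64-fold in E15.5-mSGcm (adjusted p = 1.1e-07). Under correction for GC and gene length the E15.5-mSGcm value was -0.56 (adjusted p = 4.68e-06), under the fold threshold. CACNA2D1 (chr7:81575760-82073272) had 331 and 342 CPM in control medium, 276 and 278 in E8-cSGcm, 262 and 254 in E8-cDRGcm, and 538 and 599 in E15.5-mSGcm. Its E15.5-mSGcm libraries were above the rest, at 0.76 ± 0.051 (adjusted p = 6.49e-15), while the chick media were at -0.28 and -0.38, under the fold threshold. CACNA2D3 passed no call, at 0.34, 0.43 and 0.41.

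Of 8 gamma subunit genes 2 were tested, and CACNG4 gave the largest fall among the calcium channel genes. CACNG4 (chr17:64960823-65029514), which also serves as an auxiliary subunit of AMPA-type glutamate receptors, was at 81.4 and 75.2 CPM in control medium, 23.5 and 24.2 in E8-cSGcm, 11.0 and 11.6 in E8-cDRGcm, and 53.3 and 57.0 in E15.5-mSGcm. The groups did not overlap, with control medium highest and E8-cDRGcm lowest. It fell 3.27-fold in E8-cSGcm (log2 -1.71 ± 0.079, adjusted p = 2.41e-19) and 6.90-fold in E8-cDRGcm (log2 -2.79 ± 0.09, adjusted p = 8.46e-25), and its log2 change of -0.50 ± 0.075 in E15.5-mSGcm stayed under the fold threshold. CACNG7, a related gene near 1 CPM, was at 1.13 ± 0.42 in E8-cDRGcm (adjusted p = 0.0258) and 1.21 ± 0.46 in E15.5-mSGcm (adjusted p = 0.0358). Both calls were lost without control replicate 1 (1.02 (adjusted p = 0.119) and 1.10 (adjusted p = 0.143)) or control replicate 2 (1.26 (adjusted p = 0.0764) and 1.34 (adjusted p = 0.0879)). Without E8-cDRGcm replicate 2 the first was 0.91 (adjusted p = 0.189), and without E15.5-mSGcm replicate 1 or 2 the second was 1.23 (adjusted p = 0.105) or 1.18 (adjusted p = 0.159). The beta subunit genes CACNB1, CACNB3 and CACNB4 were called in no medium against control, and CACNB2 did not pass the filter.

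**Figure D2:**
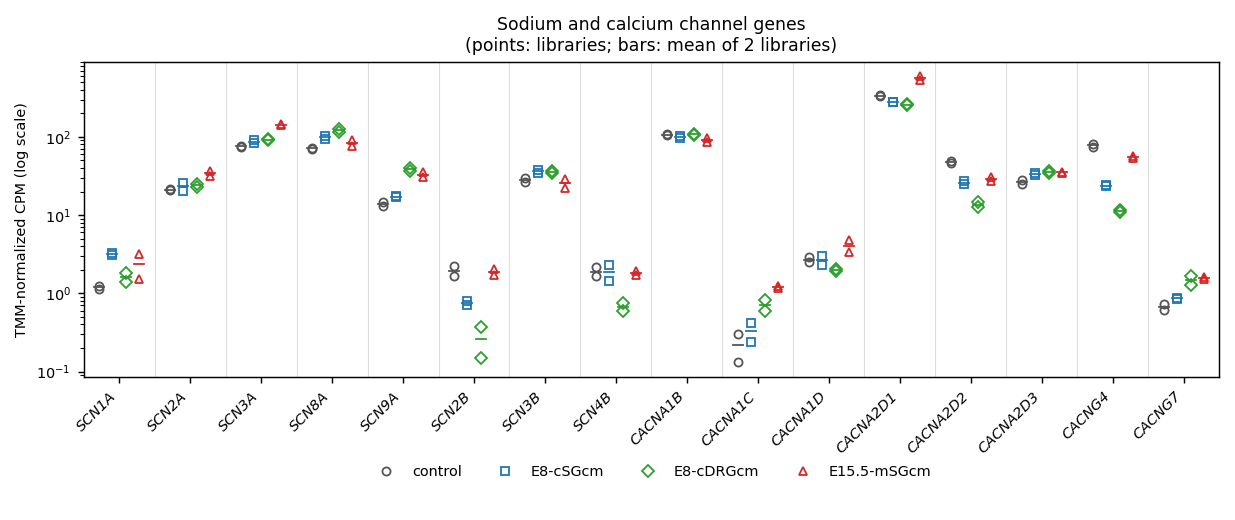
The TMM-normalized CPM of 16 sodium and calcium channel genes is drawn on a log scale, with a point for each library and a bar at the mean of the 2 libraries of a group. CACNG4 descends from control medium through E8-cSGcm to E8-cDRGcm, SCN9A stands higher in E8-cDRGcm and E15.5-mSGcm, and CACNA1B lies between 85.8 and 110.3 CPM in every library.

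Voltage-gated potassium pores were the largest family, with 30 genes, 24 with a count and 21 tested. In E8-cSGcm 2 were called higher and 1 lower, in E8-cDRGcm 4 higher and 4 lower, and in E15.5-mSGcm 2 higher and 7 lower. The median log2 fold changes were 0.15, -0.05 and -0.44. The Shaw-type genes, whose channels let neurons fire at high rates, held the largest rises of the family in both chick media. KCNC2 (chr12:75433857-75603619) had 0.688 and 0.986 CPM in control medium, 4.73 and 3.71 in E8-cSGcm, 6.43 and 5.64 in E8-cDRGcm, and 1.54 and 1.26 in E15.5-mSGcm. Every library of the chick media was above every library of the other groups, and the log2 fold change was 2.29 ± 0.31 (adjusted p = 2.02e-07) in E8-cSGcm, 2.82 ± 0.28 (adjusted p = 1.46e-10) in E8-cDRGcm and 0.71 ± 0.43 (adjusted p = 0.204) in E15.5-mSGcm. KCNC4 (chr1:110752936-110825722), a fast-inactivating member, was at 0.841 and 0.921 CPM in control medium, 2.89 and 2.03 in E8-cSGcm, 3.89 and 3.88 in E8-cDRGcm, and 0.512 and 0.457 in E15.5-mSGcm. It rose 2.74-fold in E8-cSGcm (adjusted p = 0.0011) and 4.36-fold in E8-cDRGcm (adjusted p = 4.97e-07), and its E15.5-mSGcm value of -0.86 ± 0.56 missed the threshold (adjusted p = 0.238). KCNC1, another Shaw-type gene, fell in E8-cDRGcm (log2 -0.81 ± 0.091, adjusted p = 1.5e-09).

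KCNQ3, which helps carry the M-current that restrains repetitive firing, was lower in E15.5-mSGcm. It had 55.7 and 46.8 CPM in control medium, 75.7 and 71.7 in E8-cSGcm, 93.6 and 84.5 in E8-cDRGcm, and 19.9 and 22.3 in E15.5-mSGcm, with E15.5-mSGcm below and both chick media above control medium. It rose in E8-cDRGcm (log2 0.80 ± 0.074, adjusted p = 3.05e-11), and fell in E15.5-mSGcm (log2 -1.27 ± 0.10, adjusted p = 1.1e-12). In E8-cSGcm the value was 0.53 ± 0.076, under the fold threshold. KCNQ5, which joins the same channels, was at -0.08, 0.08 and 0.25 and was not called. KCNQ1, a cardiac and epithelial channel, was near the floor with 11 and 8 counts in control medium, 8 and 12 in E8-cSGcm, 4 and 5 in E8-cDRGcm, and 1 and 1 in E15.5-mSGcm, a ratio of control medium to E15.5-mSGcm of 5.56 (95% counting interval 1.34 to 49.3). Its call in E15.5-mSGcm (log2 -2.38, adjusted p = 0.0324) was lost without control replicate 1, at -2.04 (adjusted p = 0.175), E15.5-mSGcm replicate 1, at -2.47 (adjusted p = 0.125), or E15.5-mSGcm replicate 2, at -2.32 (adjusted p = 0.179). KCNQ1 also shares 177 bases of exon with the antisense RNA KCNQ1OT1, which had 1002 to 1741 counts per library, and without the strand setting of the counting their reads cannot be told apart.

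Among the ether-a-go-go genes, KCNH2, which encodes the hERG channel, had 176 and 182 CPM in control medium, 149.8 and 152 in E8-cSGcm, 110.1 and 112 in E8-cDRGcm, and 135 and 129 in E15.5-mSGcm. It fell in E8-cDRGcm (log2 -0.69 ± 0.053, adjusted p = 1.46e-13), and was at -0.25 and -0.44 in the SG media, under the fold threshold. KCNH6 (chr17:61600695-61626338), a close relative of KCNH2, had 7.72 and 6.90 CPM in control medium, 5.37 and 4.97 in E8-cSGcm, 2.39 and 3.59 in E8-cDRGcm, and 1.28 and 2.17 in E15.5-mSGcm. Every library of the conditioned media was below control medium, with a log2 fold change of -1.28 ± 0.21 (adjusted p = 4.09e-06) in E8-cDRGcm and -2.05 ± 0.27 (adjusted p = 1.34e-07) in E15.5-mSGcm, beside -0.50 ± 0.19 in E8-cSGcm. KCNH8, an elk-type gene, was at 0.75 ± 0.09 in E15.5-mSGcm (adjusted p = 1.51e-08) and at 0.59 ± 0.085 in E8-cDRGcm (adjusted p = 2.84e-07), the latter just past the fold threshold and under it without control replicate 2, at 0.56 (adjusted p = 6.23e-05), or E8-cDRGcm replicate 1, at 0.52 (adjusted p = 7.9e-05). KCNH5, an eag-type gene, rested on 4 and 0 counts in control medium, 6 and 1 in E8-cSGcm, 1 and 6 in E8-cDRGcm, and 11 and 8 in E15.5-mSGcm, a ratio of E15.5-mSGcm to control medium of 8.11 (95% counting interval 2.70 to 32.8). Its log2 value of 2.93 (adjusted p = 0.00598) was 6.82 (adjusted p = 0.00242) without control replicate 1, 1.87 (adjusted p = 0.111) without control replicate 2 and 2.60 (adjusted p = 0.0791) without E15.5-mSGcm replicate 1.

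KCNH1 and KCNH4 were called lower in E15.5-mSGcm at -1.31 (adjusted p = 0.0497) and -0.73 (adjusted p = 0.0303). Neither call held: without E15.5-mSGcm replicate 2 KCNH1 was at -0.89 (adjusted p = 0.349), without E15.5-mSGcm replicate 1 it was at -1.85 (adjusted p = 0.0589), and without control replicate 1 or 2 it was at -1.30 (adjusted p = 0.115) or -1.33 (adjusted p = 0.108). KCNH4 was at -0.44 (adjusted p = 0.326) without E15.5-mSGcm replicate 1, and at -0.68 (adjusted p = 0.109) or -0.81 (adjusted p = 0.0535) without control replicate 1 or 2. KCNH1 overlaps the pseudogene IPO8P1 on its own strand. Of the Shaker and Shab genes, KCNA2 (chr1:111062459-111174096), a delayed rectifier of axons, had 31 and 42 counts in control medium, 11 and 10 in E8-cSGcm, 8 and 3 in E8-cDRGcm, and 19 and 14 in E15.5-mSGcm. Its libraries in the chick media were below all libraries of the other groups, with -1.70 ± 0.38 (adjusted p = 0.000691) in E8-cSGcm and -2.63 ± 0.44 (adjusted p = 4.39e-06) in E8-cDRGcm. The ratio of control medium to E8-cDRGcm was 6.34 (95% counting interval 3.34 to 13.3), and without E8-cDRGcm replicate 1 the log2 value was -3.49 (adjusted p = 1.73e-05). KCNB2, the pore gene with the highest level per kilobase of all exons in this family, was at -0.47, -0.58 and -0.03, just under the fold threshold in E8-cDRGcm.

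The modifier pores form no channel of their own and join those of the Shab family, such as KCNB2. KCNG1 (chr20:49620193-49639644) had 41.1 and 36.4 CPM in control medium, 58.4 and 53.6 in E8-cSGcm, 81.5 and 86.0 in E8-cDRGcm, and 9.86 and 9.60 in E15.5-mSGcm, and no library of 1 group overlapped another. It rose 2.17-fold in E8-cDRGcm (log2 1.11 ± 0.073, adjusted p = 1.78e-15) and fell 3.98-fold in E15.5-mSGcm (log2 -1.99 ± 0.12, adjusted p = 1.12e-16). In E8-cSGcm the log2 value was 0.53 ± 0.077 (adjusted p = 8.9e-07), under the fold threshold. KCNS3 (chr2:18059114-18542882) was at 1.91 and 1.84 CPM in control medium, 3.77 and 3.64 in E8-cSGcm, 1.87 and 2.64 in E8-cDRGcm, and 5.76 and 8.00 in E15.5-mSGcm. It rose in E8-cSGcm (log2 0.98 ± 0.27, adjusted p = 0.00454), and in E15.5-mSGcm (log2 1.88 ± 0.26, adjusted p = 2.47e-07), and was at 0.27 in E8-cDRGcm. KCNS2 was lower in E8-cDRGcm at -1.35 ± 0.47 (adjusted p = 0.0153), a call lost without control replicate 1, at -0.98 (adjusted p = 0.18), or E8-cDRGcm replicate 2, at -1.17 (adjusted p = 0.106). KCNG3 and KCNS1 were not called against control, and the other modifiers did not pass the filter.

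Of 13 auxiliary genes 5 were tested, with none called in E8-cSGcm, 2 lower in E8-cDRGcm and 2 higher in E15.5-mSGcm. KCNE4 (chr2:223916908-224063117), a single-span subunit that damps several voltage-gated pores, had 4.89 and 5.06 CPM in control medium, 4.09 and 3.64 in E8-cSGcm, 2.77 and 3.22 in E8-cDRGcm, and 14.1 and 15.3 in E15.5-mSGcm. The E15.5-mSGcm libraries were above all others, at 1.56 ± 0.17 (adjusted p = 2.22e-09). In E8-cDRGcm it was at -0.73 ± 0.21 (adjusted p = 0.00416), and at -0.63 (adjusted p = 0.0524) without E8-cDRGcm replicate 1. KCNIP2, a calcium-binding partner of the KCND pores, had 10.2 and 9.60 CPM in control medium, 8.18 and 9.03 in E8-cSGcm, 4.71 and 6.01 in E8-cDRGcm, and 14.6 and 13.6 in E15.5-mSGcm. It fell in E8-cDRGcm (log2 -0.88 ± 0.16, adjusted p = 2.13e-05), with 0.51 ± 0.15 in E15.5-mSGcm under the fold threshold. Among its pores, KCND1 was not called, KCND3 did not pass the filter and KCND2 was at 0. KCNAB2, a beta subunit of the Shaker family, was at 0.62 ± 0.11 in E15.5-mSGcm (adjusted p = 2.2e-05), and was under the fold threshold without control replicate 2, at 0.49 (adjusted p = 0.00407), or E15.5-mSGcm replicate 1, at 0.58 (adjusted p = 0.00127).

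**Figure D3:**
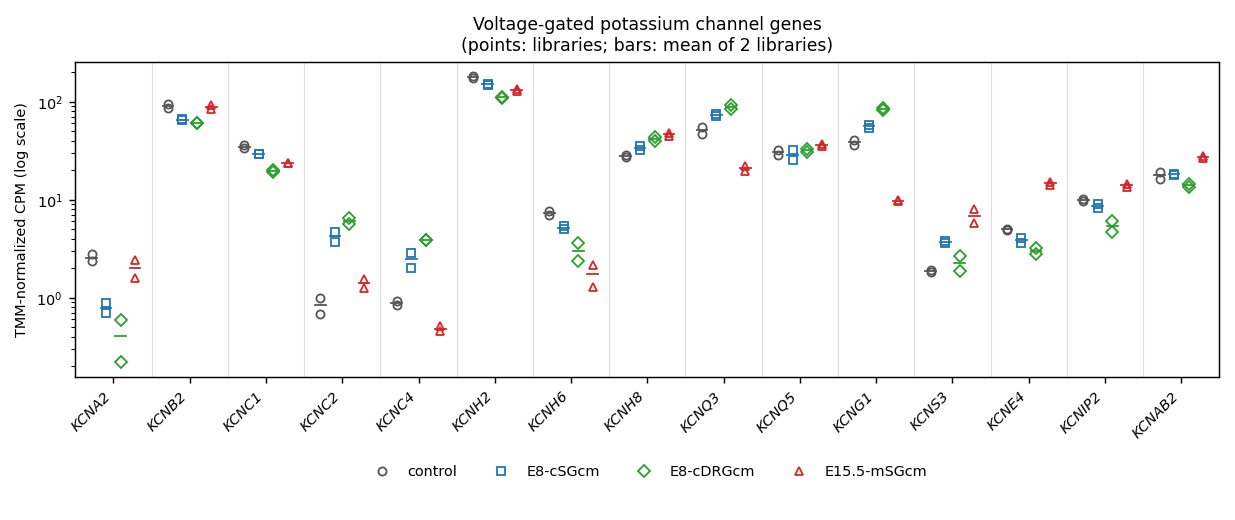
The TMM-normalized CPM of 15 voltage-gated, modifier and auxiliary potassium channel genes is drawn on a log scale for each library, with bars at the mean of the 2 libraries of a group. KCNQ3 and KCNG1 stand above control medium in both chick media and below it in E15.5-mSGcm, and KCNC2 and KCNC4 stand above the other groups in both chick media.

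Potassium channels gated by calcium or sodium inside the cell had 8 tested genes of 12. In E8-cSGcm 4 were called higher and none lower, in E8-cDRGcm 3 higher and none lower, and in E15.5-mSGcm 2 higher and 2 lower, with medians of 0.57, 0.40 and 0.27. KCNMA1, the pore of the large-conductance BK channel, had 4.21 and 5.20 CPM in control medium, 7.70 and 8.26 in E8-cSGcm, 9.42 and 7.47 in E8-cDRGcm, and 3.72 and 3.54 in E15.5-mSGcm, and KCNMB4, its main neuronal beta subunit, had 3.82 and 3.75 CPM in control medium, 6.65 and 6.16 in E8-cSGcm, 9.35 and 9.52 in E8-cDRGcm, and 3.72 and 6.40 in E15.5-mSGcm. For both genes the chick media were above control medium in every library. KCNMA1 rose 1.69-fold in E8-cSGcm (adjusted p = 0.00141) and 1.78-fold in E8-cDRGcm (adjusted p = 0.000195). KCNMB4 rose 1.69-fold (adjusted p = 0.00404) and 2.49-fold (adjusted p = 3.38e-07) in the same media. In E15.5-mSGcm the log2 values of KCNMA1 and KCNMB4 were -0.38 ± 0.24 and 0.44 ± 0.24, and neither was called.

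The 3 tested SK genes, whose small-conductance channels carry an afterhyperpolarization, moved apart in E15.5-mSGcm. KCNN3 (chr1:154669931-154842757) had 1.53 and 2.24 CPM in control medium, 3.69 and 2.66 in E8-cSGcm, 1.20 and 1.90 in E8-cDRGcm, and 9.35 and 10.2 in E15.5-mSGcm, and its E15.5-mSGcm libraries were above all others. The log2 fold change was 2.35 ± 0.25 (adjusted p = 6.23e-10). In E8-cSGcm it was at 0.72 (adjusted p = 0.0469), a call lost without control replicate 1, at 0.49 (adjusted p = 0.3), E8-cSGcm replicate 1, at 0.48 (adjusted p = 0.332), or E15.5-mSGcm replicate 1 or 2, at 0.72 (adjusted p = 0.0542) or 0.72 (adjusted p = 0.0549). KCNN2 had 14.5 and 16.0 CPM in control medium, 20.9 and 19.9 in E8-cSGcm, 23.2 and 19.9 in E8-cDRGcm, and 32.2 and 33.9 in E15.5-mSGcm, and rose in E15.5-mSGcm (log2 1.12 ± 0.11, adjusted p = 1.16e-10), beside 0.42 and 0.50 in the chick media. KCNN1 had 9.10 and 9.67 CPM in control medium, 12.7 and 10.6 in E8-cSGcm, 7.78 and 9.23 in E8-cDRGcm, and 3.84 and 3.77 in E15.5-mSGcm, and fell in E15.5-mSGcm (log2 -1.30 ± 0.20, adjusted p = 2.57e-06), beside 0.30 and -0.14 in the chick media. The sodium-activated gene KCNT1 (chr9:138594031-138687354) was at 47.3 and 44.7 CPM in control medium, 76.9 and 74.1 in E8-cSGcm, 59.6 and 54.1 in E8-cDRGcm, and 20.4 and 18.8 in E15.5-mSGcm. It rose in E8-cSGcm (log2 0.72 ± 0.071, adjusted p = 3.62e-10), and fell in E15.5-mSGcm (log2 -1.23 ± 0.095, adjusted p = 3.32e-13), with all 4 groups apart. KCNT2, its relative, rose in E8-cDRGcm (log2 0.70 ± 0.066, adjusted p = 2.79e-11), and was at 0.27 and 0.31 in the SG media.

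Inward rectifiers hold the resting potential and respond to G proteins or to ATP. Of 15 genes 6 were tested. KCNJ6 (chr21:38979675-39493439), a G protein-gated gene, had 5.20 and 5.26 CPM in control medium, 1.04 and 1.61 in E8-cSGcm, 0.449 and 0.440 in E8-cDRGcm, and 13.8 and 11.1 in E15.5-mSGcm. Both chick media were below control medium and E15.5-mSGcm was above it in every library. KCNJ6 fell 3.87-fold in E8-cSGcm (log2 -1.95 ± 0.26, adjusted p = 2.55e-07) and 11.5-fold in E8-cDRGcm (log2 -3.53 ± 0.33, adjusted p = 2.83e-11), and rose 2.37-fold in E15.5-mSGcm (log2 1.24 ± 0.19, adjusted p = 1.29e-06). KCNJ3, the subunit that pairs with it in neuronal channels, had 74.2 and 75.2 CPM in control medium, 68.8 and 62.8 in E8-cSGcm, 87.7 and 88.3 in E8-cDRGcm, and 97.2 and 89.8 in E15.5-mSGcm and was not called, at -0.19 ± 0.065, 0.24 ± 0.063 and 0.32 ± 0.066. The ATP-sensitive pore gene KCNJ11 was at -0.96 ± 0.35 in E8-cDRGcm (adjusted p = 0.0226) and -1.45 ± 0.43 in E15.5-mSGcm (adjusted p = 0.0072). Both calls were lost without control replicate 1, at -0.77 (adjusted p = 0.158) and -1.28 (adjusted p = 0.0561). The first was also lost without E8-cDRGcm replicate 1 (-0.88 (adjusted p = 0.106)) or 2 (-1.04 (adjusted p = 0.0643)), and the second without E15.5-mSGcm replicate 1 (-1.24 (adjusted p = 0.0721)). KCNJ8, the other ATP-sensitive pore, was at -0.31, -0.33 and -0.33, and KCNJ12 and KCNJ14 were not called. KCNJ12 has near-identical copies in the genome, so its counts are uncertain.

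Two-pore channels carry the background potassium leak. Of 15 genes 8 were tested, with 3 higher and 1 lower in E8-cSGcm, 4 higher and 1 lower in E8-cDRGcm, and 2 higher and 1 lower in E15.5-mSGcm. KCNK3 (chr2:26915590-26956288), the acid-sensitive gene with the highest level per kilobase of the family, had 27.0 and 28.1 CPM in control medium, 14.7 and 14.5 in E8-cSGcm, 16.9 and 14.9 in E8-cDRGcm, and 73.5 and 89.1 in E15.5-mSGcm. The chick media were below control medium and E15.5-mSGcm above it. The log2 fold change was -0.92 ± 0.11 (adjusted p = 1.49e-08) in E8-cSGcm, -0.79 ± 0.11 (adjusted p = 6.84e-08) in E8-cDRGcm and 1.56 ± 0.089 (adjusted p = 4.84e-17) in E15.5-mSGcm. KCNK2, a mechanosensitive gene of the extended mesenchymal set of the study, had 2.91 and 2.83 CPM in control medium, 3.45 and 3.92 in E8-cSGcm, 2.54 and 2.20 in E8-cDRGcm, and 10.5 and 9.94 in E15.5-mSGcm. It rose in E15.5-mSGcm (log2 1.83 ± 0.21, adjusted p = 4.02e-09), and was at 0.37 and -0.27 in the chick media. KCNK10, its relative, was at -0.82 ± 0.25 in E15.5-mSGcm (adjusted p = 0.00947), a call lost without control replicate 2, at -0.73 (adjusted p = 0.0656), or E15.5-mSGcm replicate 2, at -0.60 (adjusted p = 0.175).

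KCNK1 (chr1:233749852-233808260), a weakly conducting two-pore gene, had 2.45 and 2.04 CPM in control medium, 4.41 and 4.62 in E8-cSGcm, 7.40 and 7.25 in E8-cDRGcm, and 2.31 and 1.83 in E15.5-mSGcm. The chick media were above the other groups, at 1.02 ± 0.23 (adjusted p = 0.000836) in E8-cSGcm and 1.71 ± 0.21 (adjusted p = 1.75e-08) in E8-cDRGcm, beside -0.12 ± 0.31 in E15.5-mSGcm. KCNK1 is on an escape gene list that the study drew from these libraries, so its direction is not independent evidence. KCNK5, opened by alkaline pH, was at 1.76 and 1.97 CPM in control medium, 3.69 and 4.06 in E8-cSGcm, 3.44 and 3.96 in E8-cDRGcm, and 1.67 and 1.49 in E15.5-mSGcm, and rose 2.07-fold in E8-cSGcm (adjusted p = 0.00179) and 1.97-fold in E8-cDRGcm (adjusted p = 0.00196). KCNK13 (chr14:90528338-90652197), a halothane-inhibited channel gene, had 1 and 1 counts in control medium, 10 and 10 in E8-cSGcm, 22 and 16 in E8-cDRGcm, and 0 and 1 in E15.5-mSGcm. Its ratio to control medium was 10.6 (95% counting interval 2.57 to 93.3) in E8-cSGcm (adjusted p = 0.00245) and 19.9 (95% counting interval 5.14 to 170.2) in E8-cDRGcm (adjusted p = 8.95e-06). KCNK12, its closest relative, had 3 and 2 counts in control medium, 11 and 5 in E8-cSGcm, 26 and 25 in E8-cDRGcm, and 5 and 4 in E15.5-mSGcm, a ratio of E8-cDRGcm to control medium of 10.7 (95% counting interval 4.29 to 34.3) with an adjusted p of 5.53e-06. In E8-cSGcm and E15.5-mSGcm KCNK12 was not called (adjusted p = 0.0675 and 0.131). Of the 73 tested channel genes 29, KCNK12 among them, share exon bases with a gene on the other strand, and reads of such pairs cannot be told apart without the strand setting.

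**Figure D4:**
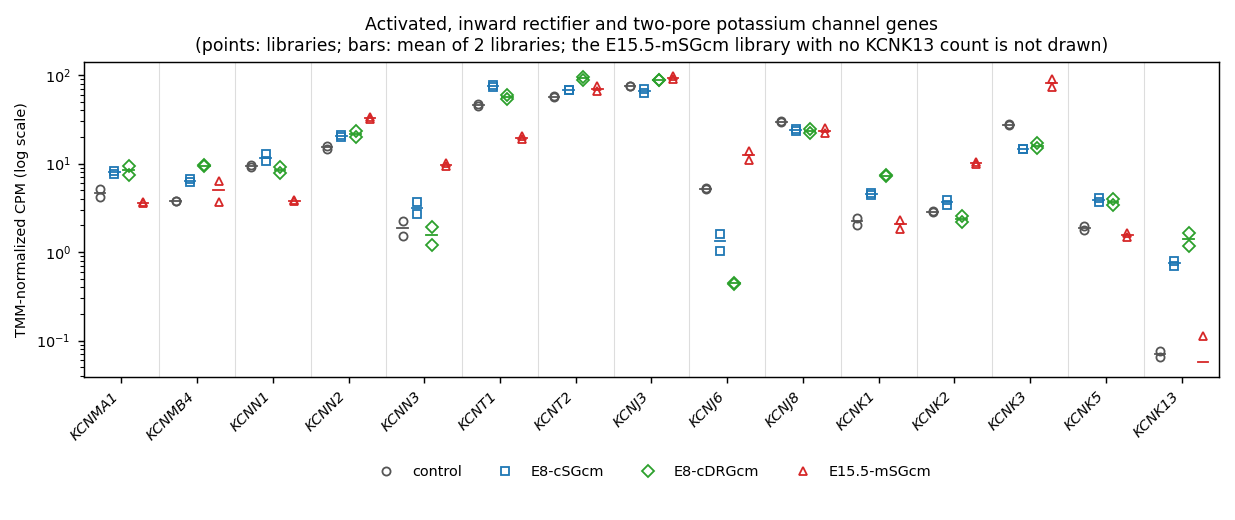
The TMM-normalized CPM of 15 ion-activated, inward rectifier and two-pore potassium channel genes is drawn on a log scale for each library, with bars at the mean of the 2 libraries of a group. KCNJ6 and KCNK3 lie below control medium in both chick media and above it in E15.5-mSGcm, KCNK13 rises from 1 count per control library to 10 in each E8-cSGcm library, and the E15.5-mSGcm library with no KCNK13 count is not drawn.

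Promoter sequence was examined for 2 parts of the REST site. Through this element the repressor REST silences neuronal genes, channel genes among them, outside neurons. RefSeq on GRCh38.p14 gave the 250 bases before the start of 97 of the 135 genes. The site was searched on both strands as its left part TTCAGCACC, in 0.288% of 35116 promoters, and its right part GGACAGC, in 4.76%. Both parts, in any order and spacing, stood in 15 promoters (0.0427%), which included those of KCNK3 and KCNH6. These 2 promoters are shown since they are the channel promoters with both parts. Capitals mark the parts in the strand of the gene, at chr2:26692472-26692721 (plus strand) for KCNK3 and chr17:63523108-63523357 (plus strand) for KCNH6.
KCNK3: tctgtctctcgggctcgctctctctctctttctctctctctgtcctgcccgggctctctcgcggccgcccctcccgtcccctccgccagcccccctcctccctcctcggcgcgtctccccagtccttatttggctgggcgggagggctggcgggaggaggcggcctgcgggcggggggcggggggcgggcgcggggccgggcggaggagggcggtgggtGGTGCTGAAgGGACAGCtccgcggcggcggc
KCNH6: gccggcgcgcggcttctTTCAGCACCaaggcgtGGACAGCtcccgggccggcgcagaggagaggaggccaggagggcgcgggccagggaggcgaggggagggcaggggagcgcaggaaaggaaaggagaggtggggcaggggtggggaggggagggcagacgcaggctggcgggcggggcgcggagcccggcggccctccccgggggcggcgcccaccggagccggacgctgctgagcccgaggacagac

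In KCNK3 the left part lay on the opposite strand, 31 to 23 bases before the start, 1 base from the right part. In KCNH6 both parts lay on the printed strand, 233 to 225 and 217 to 211 bases before the start, with 7 bases between them. The search set no order, shared strand or spacing, so a promoter with both parts is not a match to the whole site. These matches are letters in a window and not sites shown to be bound. A link of REST to either gene was not tested. REST itself had 30.8 ± 1.13 CPM (SD, n = 2) in control medium, 34.3 ± 2.33 in E8-cSGcm, 53.0 ± 2.30 in E8-cDRGcm and 33.6 ± 1.64 in E15.5-mSGcm, and was called in E8-cDRGcm alone (log2 0.78 ± 0.08). In the order E8-cSGcm, E8-cDRGcm and E15.5-mSGcm the log2 fold changes were -0.92, -0.79 and 1.56 for KCNK3, -0.50, -1.28 and -2.05 for KCNH6, and 0.15, 0.78 and 0.13 for REST. The AP-1 motif TGANTCA was in 6.57% of promoters and in those of 11 of the 97 channel genes. The CRE motif TGACGTCA was in 1.65% and, among the channel genes, in that of KCNF1 alone. The motifs were chosen with the expression results known.

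The conditioned media were then compared with each other. These 3 contrasts share media libraries among themselves and use the control libraries only through the shared filter, scaling and estimate of spread. Between E8-cDRGcm and E8-cSGcm 14 of the 73 tested channel genes were called (19.2%), 4 higher and 10 lower in E8-cDRGcm, beside 7.49% of all tested genes, 2.62% higher and 4.87% lower. Of these, 3 were called under every alternative. They were SCN9A, higher at 1.15 ± 0.096 (adjusted p = 7.03e-12), and the calcium accessory genes CACNG4 and CACNA2D2, lower at -1.08 ± 0.11 (adjusted p = 4.45e-10) and -0.93 ± 0.11 (adjusted p = 1.17e-08). The other 11 calls were each lost under at least 1 alternative. KCNK12 (1.64), KCNK1 (0.70) and KCNC4 (0.67) were higher, and KCNJ6 (-1.58), SCN4B (-1.50), SCN1A (-0.99), KCNN3 (-1.01), KCNH6 (-0.78), KCNS3 (-0.71), KCNIP2 (-0.68) and KCNK2 (-0.64) were lower. Without control replicate 1 the call lost was that of KCNC4 at 0.67. In the fit without E8-cSGcm replicate 1 the calls lost were those of KCNK2 at -0.73, KCNN3 at -0.77 and KCNS3 at -0.69, as log2 values without that library. Without E8-cSGcm replicate 2 they were KCNC4 at 0.43, KCNJ6 at -1.21, KCNK12 at 1.09, KCNK2 at -0.54, KCNS3 at -0.74 and SCN4B at -1.10. Without E8-cDRGcm replicate 1 they were KCNC4 at 0.67, KCNH6 at -0.52, KCNIP2 at -0.52, KCNK2 at -0.75, KCNN3 at -0.72 and KCNS3 at -0.49. Without E8-cDRGcm replicate 2 they were KCNC4 at 0.67, KCNK2 at -0.54, SCN1A at -0.82 and SCN4B at -1.33. Without E15.5-mSGcm replicate 1 the call lost was that of KCNC4 at 0.67. Without E15.5-mSGcm replicate 2 the call lost was that of KCNC4 at 0.67. The call of KCNK1 was lost only under alternatives that keep all libraries. Without E8-cSGcm replicate 2 or E8-cDRGcm replicate 1 the count was 9. While its call stood, the fold change moved by over 1.5 times for KCNK12 from 1.64 to 2.40 without E8-cSGcm replicate 1 (log2 values).

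The SG media of mouse and chick differed in more channel genes. Between E15.5-mSGcm and E8-cSGcm 39 of the 73 were called (53.4%), 19 higher and 20 lower in E15.5-mSGcm, beside 22.3% of all tested genes, 10.2% higher and 12.1% lower. Species and embryonic day of the ganglia differ together here and cannot be told apart. By Carnegie staging the study places this mouse stage close to the chick day used. Of the 39 calls 23 held under every alternative that gave a value, and those named next are among them. KCNJ6, KCNC4 and KCNC2 were not tested with 10 counts required in every library. KCNJ6 and KCNK3 were higher in E15.5-mSGcm, at log2 differences of 3.20 ± 0.24 (adjusted p = 9.57e-14) and 2.48 ± 0.099 (adjusted p = 9.46e-22). KCNE4 (1.93), KCNN3 (1.63), KCNK2 (1.46), CACNG4 (1.21), CACNA2D1 (1.04), SCN9A (0.93), KCNIP2 (0.71) and KCNN2 (0.70) were also higher. KCNG1 was lower at -2.52 ± 0.11 (adjusted p = 1.97e-20), KCNC4 at -2.31 ± 0.46 (adjusted p = 6.27e-05), KCNT1 at -1.95 ± 0.09 (adjusted p = 9.25e-20) and KCNQ3 at -1.80 ± 0.096 (adjusted p = 1.72e-17). KCNN1 (-1.60), KCNC2 (-1.59), KCNH6 (-1.56), KCNK5 (-1.30), KCNMA1 (-1.14) and KCNK1 (-1.13) were also lower.

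The other 16 calls between E15.5-mSGcm and E8-cSGcm were each lost under at least 1 alternative. Among these, KCNH5 (2.09), CACNA1C (1.81), KCNA2 (1.33), SCN2B (1.31), KCNS2 (1.09), KCNS3 (0.90), SCN3A (0.73), KCNG3 (0.63) and KCNAB2 (0.59) were higher in E15.5-mSGcm, and KCNK13 (-3.43), KCNQ1 (-2.53), KCNAB3 (-1.90), KCNH3 (-1.56), KCNK10 (-0.96), KCNH4 (-0.91) and CACNB3 (-0.67) were lower. By summed counts the ratio of E8-cSGcm to E15.5-mSGcm was 12.4 (95% counting interval 1.98 to 513) for KCNK13, and KCNQ1 rested on 20 counts against 2. Without control replicate 1 the call lost was that of KCNAB2 at 0.58. Without control replicate 2 the call lost was that of KCNAB2 at 0.58. In the fit without E8-cSGcm replicate 1 the calls lost were those of CACNA1C at 1.49, KCNAB2 at 0.56, KCNH3 at -1.48 and KCNS2 at 0.65, as log2 values without that library. Without E8-cSGcm replicate 2 they were KCNA2 at 1.16, KCNAB3 at -1.87, KCNG3 at 0.57, KCNH3 at -1.67, KCNH5 at 1.23, KCNQ1 at -2.32 and SCN2B at 1.21. Without E8-cDRGcm replicate 2 the call lost was that of KCNAB2 at 0.58. Without E15.5-mSGcm replicate 1 they were KCNA2 at 1.01, KCNAB2 at 0.55, KCNAB3 at -1.74, KCNG3 at 0.44, KCNH4 at -0.62, KCNH5 at 1.75, KCNK13 at -2.62, KCNQ1 at -2.62 and SCN2B at 1.18. Without E15.5-mSGcm replicate 2 they were CACNA1C at 1.74, KCNAB3 at -2.14, KCNH3 at -0.73, KCNK10 at -0.74, KCNQ1 at -2.46, KCNS2 at 0.66 and KCNS3 at 0.63. The calls of CACNB3 and SCN3A were lost only under alternatives that keep all libraries. Among calls that stood without a library, fold changes that moved by over 1.5 times were, as log2 values, KCNH3 from -1.56 to -3.38 without E15.5-mSGcm replicate 1, KCNH5 from 2.09 to 3.84 without E8-cSGcm replicate 1, KCNK13 from -3.43 to -6.28 without E15.5-mSGcm replicate 2 and KCNS2 from 1.09 to 1.77 without E8-cSGcm replicate 2.

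**Figure D5:**
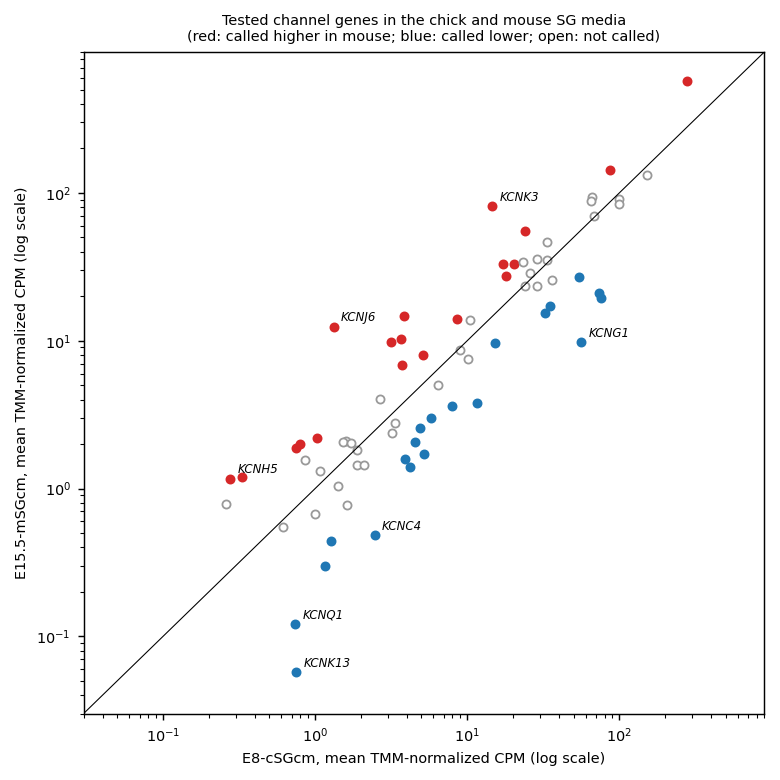
The mean TMM-normalized CPM of the 2 E15.5-mSGcm libraries is plotted against that of the 2 E8-cSGcm libraries for the 73 tested channel genes, on log axes with the line of equal levels. Red points (19) were called higher in E15.5-mSGcm and blue points (20) lower, and KCNJ6, KCNK3 and KCNG1 lie farthest from the line among genes above 1 CPM in both groups.

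Between E15.5-mSGcm and E8-cDRGcm 38 of the 73 were called (52.1%), 19 in each direction, beside 26.2% of all tested genes, 13.1% in each direction. Species, embryonic day and kind of ganglion all differ in this comparison. Of the 38 calls 25 held under every alternative that gave a value, and those named next are among them. KCNJ6, SCN2B, KCNA2, KCNC4, KCNC2 and KCNK13 were not tested with 10 counts required in every library. KCNJ6 was higher in E15.5-mSGcm, at a log2 difference of 4.77 ± 0.30 (adjusted p = 2.7e-16). SCN2B (2.81), KCNN3 (2.65), KCNK3 (2.36), KCNE4 (2.29), CACNG4 (2.28), KCNA2 (2.27), KCNK2 (2.10), KCNS3 (1.61), KCNIP2 (1.39), CACNA2D1 (1.14), CACNA2D2 (1.09) and KCNAB2 (0.95) were also higher. Without E8-cDRGcm replicate 2 SCN2B was at 3.55 (adjusted p = 0.000251), and without E8-cDRGcm replicate 1 KCNA2 was at 3.13 (adjusted p = 0.000237). KCNG1 was lower at -3.11 ± 0.10 (adjusted p = 4.06e-24). KCNC4 (-2.98), KCNC2 (-2.11), KCNQ3 (-2.08), KCNK1 (-1.83), KCNT1 (-1.54), KCNK5 (-1.23), KCNMA1 (-1.22), KCNN1 (-1.16) and the calcium beta gene CACNB3 (-0.86) were also lower. KCNK13 was lower as well, with 1 count over both E15.5-mSGcm libraries and 38 over both E8-cDRGcm libraries, a ratio of 23.3 (95% counting interval 3.94 to 944).

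The other 13 calls between E15.5-mSGcm and E8-cDRGcm were each lost under at least 1 alternative. Among these, KCNH5 (2.11), KCNS2 (1.89), SCN4B (1.43), CACNA1D (1.06), SCN3A (0.65) and KCNN2 (0.62) were higher in E15.5-mSGcm, and KCNK12 (-1.78), KCNH3 (-1.55), KCNMB4 (-0.88), KCNH6 (-0.77), KCNH4 (-0.69) and KCNK10 (-0.69) were lower. In the fit without E8-cDRGcm replicate 1 the calls lost were those of KCNH4 at -0.49 and KCNH5 at 1.38, as log2 values without that library. Without E8-cDRGcm replicate 2 they were KCNH3 at -0.81, KCNH6 at -0.46, KCNK10 at -0.46, KCNN2 at 0.50 and SCN4B at 1.26. Without E15.5-mSGcm replicate 1 they were KCNH4 at -0.39, KCNH5 at 1.78, KCNH6 at -0.47 and KCNMB4 at -0.57. Without E15.5-mSGcm replicate 2 they were CACNA1D at 0.75, KCNH3 at -0.71, KCNK10 at -0.47, KCNK12 at -1.55, KCNN2 at 0.57 and KCNS2 at 1.47. The call of SCN3A was lost only under alternatives that keep all libraries. Further fold changes that moved by over 1.5 times while the call stood were, as log2 values, KCNH3 from -1.55 to -3.36 without E15.5-mSGcm replicate 1, KCNH5 from 2.11 to 3.76 without E8-cDRGcm replicate 2, KCNK13 from -4.33 to -3.52 without E15.5-mSGcm replicate 1 and KCNK13 from -4.33 to -7.19 without E15.5-mSGcm replicate 2.

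Genes that work with these channels were read from a list of 61, of which 55 had a count and 48 were tested. In E8-cSGcm 5 of the 48 were higher and 2 lower, in E8-cDRGcm 10 higher and 4 lower, and in E15.5-mSGcm 8 higher and 3 lower. Of all tested genes 8.59%, 20.7% and 13.9% were called in the same media. The median log2 fold changes were 0.02, 0.18 and 0.08, beside 0.01, 0.01 and -0.02 over all tested genes. The partner calls were not put through the alternatives run for the channel genes. GEM, a small GTPase that inhibits calcium channels, had 4.65 ± 0.406 CPM (SD, n = 2) in control medium, 9.60 ± 0.879 in E8-cSGcm, 19.5 ± 0.444 in E8-cDRGcm and 27.4 ± 2.14 in E15.5-mSGcm, at log2 fold changes of 1.04 ± 0.16, 2.06 ± 0.14 and 2.55 ± 0.14, all called. NEDD4L, a ubiquitin ligase that removes sodium channels from the membrane, was called higher at 0.86, 0.82 and 0.61. The sodium-calcium exchanger gene SLC8A3 was called lower at -0.62, -0.77 and -0.73. HCN2, a pacemaker channel gene, was called higher in the chick media at 1.10 and 1.60, and lower in E15.5-mSGcm at -0.84.

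The adaptor gene STAC2 and the sodium pump subunit gene ATP1B2 were called higher in both chick media, at mean levels of 1.80 ± 0.0662 and 2.93 ± 0.409 CPM for STAC2, against 0.213 ± 0.0227 in control medium, and 1.94 ± 0.661 and 1.63 ± 0.757 CPM for ATP1B2, against 0.564 ± 0.0400. LRRC55, an auxiliary protein of BK channels, was called lower in both, at 0.235 ± 0.234 and 0.0740 ± 0.00109 CPM against 0.788 ± 0.184. It rested on few reads, 12 and 10 counts in control medium, 5 and 1 in E8-cSGcm, and 1 and 1 in E8-cDRGcm. The adjusted p was 0.0483 in E8-cSGcm and 0.0019 in E8-cDRGcm. E8-cDRGcm also gave higher NEDD4 (1.21), STIM1 (0.78) and ATP2B4 (0.65), with lower REM2 (-1.39) and ATP2B3 (-1.60). In E15.5-mSGcm RRAD, a relative of GEM, was called higher, with 20 and 41 counts against 5 and 1 in control medium. The anchor gene ANK2 (0.78), the pump subunit genes ATP1B1 (0.94) and ATP1B3 (0.67) and the calcium store channel gene ITPR1 (1.09) were called higher there. The calmodulin gene CALM2 (-0.66) was called lower. The calcium pump gene ATP2B2 was called higher (0.97, adjusted p = 0.037), but its E15.5-mSGcm libraries differed widely. It had 13 and 38 counts there (3.00 ± 1.89 CPM), against 18 and 26 in control medium (1.54 ± 0.236 CPM).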

How the data were processed

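RNA-seq was run on 8 libraries of IGR-N91 aggregates, prepared with a strand-specific kit (50 ng input RNA, single-end 75 bp reads). The authors deposited raw counts of reads per Ensembl gene, with no normalization. The submitters' processing notes name bcl2fastq 2.17.1.14, cutadapt 1.9.1, TopHat2 2.1.0 and HTSeq 0.11.3. The genome build is given as hg38 in those notes and as hg19 in the methods of the study. The annotation release, the strand option of the counting and the read filters are not given in the sources used here.

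GENCODE release 44, lifted to GRCh37, supplied symbols, biotypes, positions and lengths and matched 58611 of 60676 identifiers. Counts were normalized by TMM, filtered with filterByExpr by group, and tested with edgeR 4.0.16 in R 4.3.3 (robust quasi-likelihood fit of all 8 libraries in 1 model, Benjamini-Hochberg adjustment). The steps were tested on simulated data. Library depth limits precision as given with the results. Ratios of low summed counts were given an exact 95% interval, which covers counting error only.

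The alternatives were DESeq2 1.42.0, RLE factors, filters at 1 count in total or 10 counts in every library, adjusted p alone, only the libraries compared, a replicate block, and each library left out in turn. A correction for GC content and length by splines of 5 degrees of freedom, with and without the replicate block, was added after seeing the data. Families were set by symbol. Genes named are channel genes called in a comparison, the highest per length in each family, those on the lists of the study, partner genes called against control, and, chosen after their values were seen, some members that were not called or were at 0. The members, families, partner list and marker lists were chosen with earlier results of these data known. No comparison was made with the authors' own differential results. Results for some genes are not reported here, while counts and medians over lists include every member.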

Additional observations from a re-analysis of the deposited data

Results flagged for a closer look

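For 6 genes called on opposite sides of control medium in different media, the difference between those media was itself tested. The genes were chosen by those calls, and the differences come from the same fit. A large difference was therefore set by the choice and is not independent evidence. KCNJ6 differed by a log2 value of 3.20 between E15.5-mSGcm and E8-cSGcm and of 4.77 between E15.5-mSGcm and E8-cDRGcm. KCNK3 differed by 2.48 and 2.36 in the same contrasts. KCNT1 differed by -1.95 between E15.5-mSGcm and E8-cSGcm. Between E15.5-mSGcm and E8-cDRGcm KCNE4 differed by 2.29, KCNG1 by -3.11 and KCNQ3 by -2.08. All these differences had an adjusted p of at most 6.05e-13 in edgeR's quasi-likelihood test and kept their call under every alternative that gave a value. The call of KCNE4 against control in E8-cDRGcm was lost without E8-cDRGcm replicate 1, at -0.63 (adjusted p = 0.0524).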

How the results depend on the processing

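None of the 170 calls of channel genes over the 6 comparisons changed direction under any alternative. Of the calls, 15 of 17 in E8-cSGcm, 25 of 31 in E8-cDRGcm and 19 of 31 in E15.5-mSGcm against control held under every alternative that gave a value. With 10 counts required in every library the count was 11 in E8-cSGcm and 19 in E8-cDRGcm, where fewer genes were tested, and with adjusted p alone it was 36 in E8-cSGcm. Between E8-cDRGcm and E8-cSGcm DESeq2 called 7 and adjusted p alone 28. Leaving out each library in turn gave 16 to 18 calls in E8-cSGcm, 28 to 31 in E8-cDRGcm and 25 to 31 in E15.5-mSGcm against control. It gave 9 to 15 between E8-cDRGcm and E8-cSGcm, 32 to 39 between E15.5-mSGcm and E8-cSGcm, and 35 to 40 between E15.5-mSGcm and E8-cDRGcm. Between E8-cDRGcm and E8-cSGcm the share of calls that were higher, 28.6%, was 39.3% with adjusted p alone, 44.4% without E8-cDRGcm replicate 1 and 46.7% without E8-cSGcm replicate 1. DESeq2 gave no adjusted p for SCN2B and KCNK13 in E8-cSGcm. The cause of these shifts was not tested.

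Replicate numbers come from the titles. Same-numbered libraries did not deviate together across genes (correlations of -0.0437 to 0.0420). With 2 libraries per group this cannot show whether they shared a culture day or batch of medium. With the replicate block the counts were 17, 31, 31, 13, 39 and 38 in the order above, which ended 1 of 170 calls. The correction for GC content and length, added after seeing the data, gave 17, 31, 29, 13, 38 and 34. Depth limits genes near 1 CPM, most of all in the shallower E15.5-mSGcm libraries.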
